A study of Homo sapiens with 15 samples.

Results

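Cadherins and non-clustered protocadherins are calcium-dependent adhesion receptors of the cell surface. All genes on the array with 1 symbol made of CDH or PCDH and a number alone were taken, and the clustered PCDHA, PCDHB and PCDHG genes were left out. This gave 32 genes, 21 named CDH and 11 named PCDH, of 17687 genes with 1 symbol. Each of the 32 had 1 transcript cluster, the set of probes that measures a gene. CDH4, CDH13 and PCDH11X were not analysed here.

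Classical cadherins bind their like on a neighbouring cell, and their tails recruit catenins, which link them to actin filaments. Type I and type II classical cadherins differ in the binding face of their outermost domain, and osteoblasts are known for N-cadherin (CDH2) and OB-cadherin (CDH11). Non-clustered protocadherins have more extracellular repeats and no catenin-binding tail, and several of the delta-2 class recruit the WAVE complex, which drives actin branching.

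MG-63 cells, an established human osteosarcoma line with osteoblast-like features, were grown in DMEM with 10% FCS on 2 titanium surfaces. Ti-TMS-PEI carried a covalently bound, amine-rich poly(ethyleneimine) layer, and Ti-Ref was uncoated titanium. Clariom S arrays measured the RNA of 4 samples of each surface harvested after 4 h, and of 4 Ti-TMS-PEI and 3 Ti-Ref samples harvested after 24 h, since the authors excluded 1 Ti-Ref array for its labelling controls. Chips were moved to fresh wells before lysis, so the RNA came from cells attached to the chip, and both surfaces carried cells of the same line in the same medium.

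The deposited values are log2 signals, so a difference of 1 is a 2-fold change of signal. Array medians lay between 5.79 and 5.86 at 4 h and between 6.71 and 6.79 at 24 h. By these medians the times appear to have been normalized separately, so levels were compared only within a time. Differences of the surface effect between the times, given below, may also rest on scales that are not the same. Signals of different probe sets are no measure of which gene is more abundant, and dim signals are compressed. Of 10 osteoblast and mesenchymal markers measured, COL1A1, COL1A2, SPARC, VIM and FN1 were brighter than at least 97.2% of transcript clusters at 4 h. SP7 and IBSP, which mark committed osteoblasts, lay in the dimmest 25% at both times, and SPP1 at 4 h only. RUNX2 and ALPL lay between, brighter than 53.3% and 28.3% of clusters at 4 h and 43.8% and 45% at 24 h. In bulk RNA, fewer cells of a type and less RNA per cell cannot be told apart. The methods speak of independent experiments and, elsewhere, of technical replicate groups, so SDs and p-values measure the spread between these arrays.

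A gene was called changed when its fold passed 1.5 and limma gave both a p and, after Benjamini-Hochberg adjustment over all 21448 transcript clusters, an adjusted p under 0.05. At 4 h 1 of the 32 genes was called (3.12%), the protocadherin PCDH18, which was lower on Ti-TMS-PEI. Over the whole array 0.042% were called, 0.0326% higher and 0.00932% lower, and the share among the 32 rests on this gene, which was known when the family was chosen. At 24 h CDH11 and CDH5 were higher on Ti-TMS-PEI and CDH2 was lower, which made 3 of 32 (9.38%) against 6.15% of all transcript clusters. The array-wide shares were 3.46% higher and 2.69% lower. The median log2 fold change of the 32 genes was -0.04 at 4 h and -0.03 at 24 h, next to -0.0075 and -0.0033 for all transcript clusters. Counts near the background at 24 h say nothing of the family as a whole, and the changes were those of single members.

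**Figure D1:**
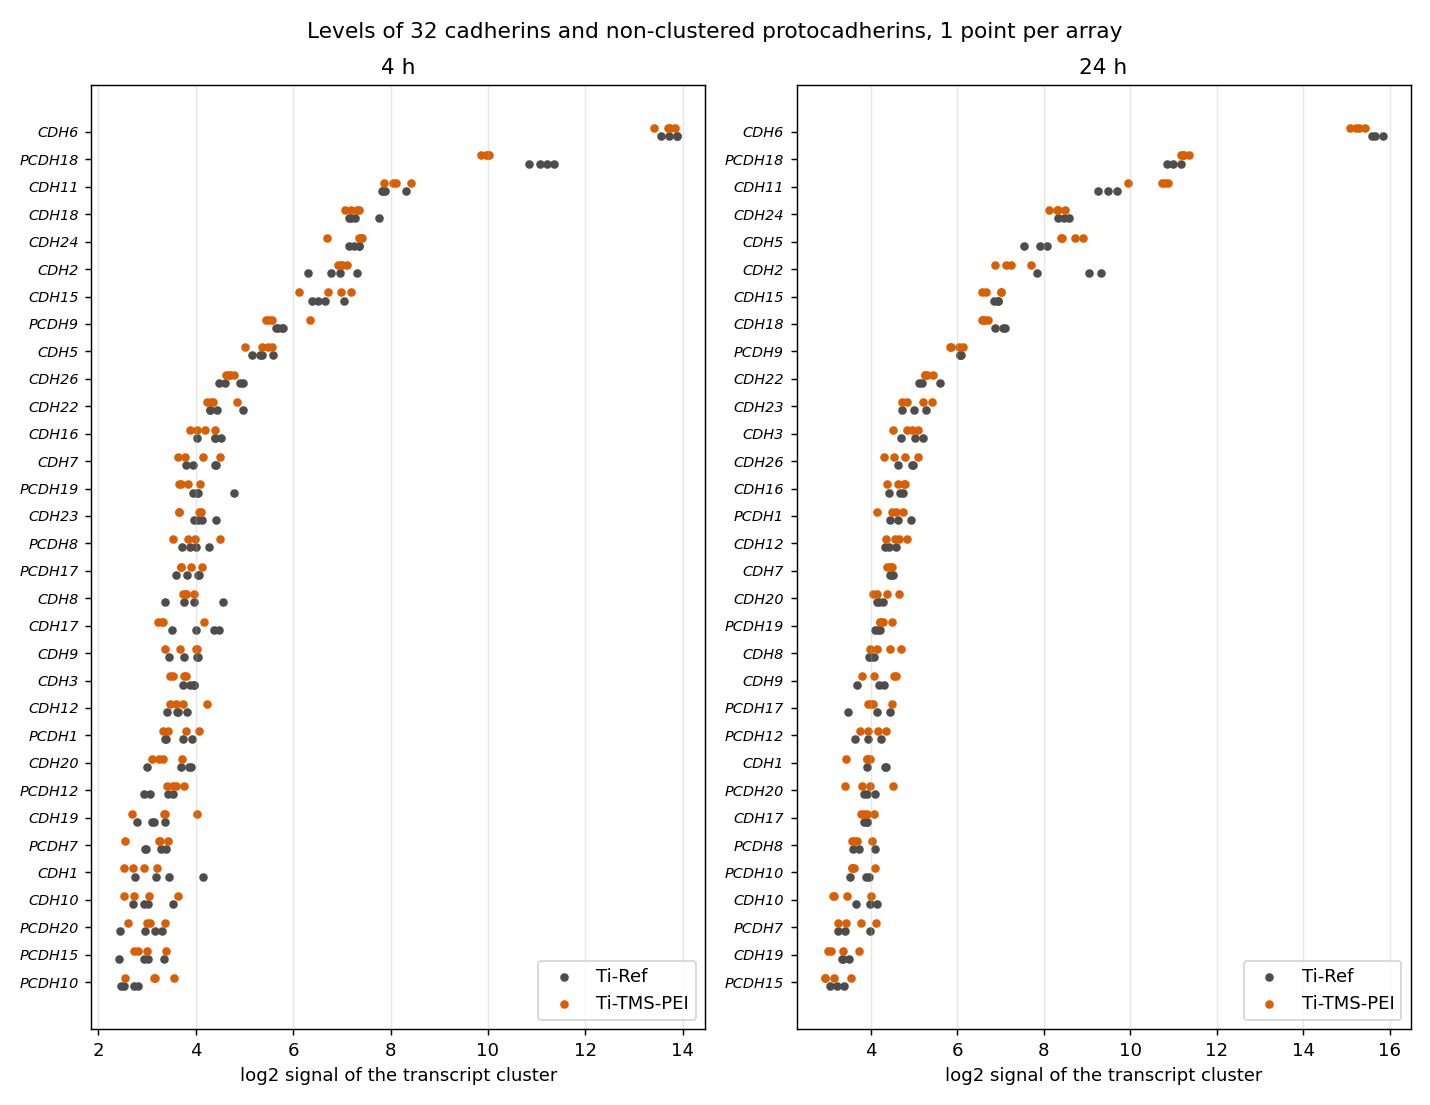
Log2 signal (x axis) of each of the 32 genes (y axis) in every array at 4 h (left) and 24 h (right), with Ti-Ref in grey and Ti-TMS-PEI in orange. PCDH18 separates the surfaces at 4 h, and CDH6, CDH11, CDH5, CDH2, CDH18 and PCDH18 do so at 24 h, while the dim genes overlap.

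The arrays of both surfaces were also compared by their ranges. At 4 h the ranges of both surfaces did not overlap for 1 of 32 genes (3.12%), against 5.77% of all transcript clusters. At 24 h this held for 6 of 32 (18.8%), against 23.5%. Counts this near the shares of the array say nothing of the family as a whole. The 6 genes were CDH2, CDH5, CDH6, CDH11, CDH18 and PCDH18. Of the 32 genes, 11 at 4 h and 15 at 24 h lay in the dimmest 25% of the array, and 0 of these were called by limma. An unadjusted p under 0.05 was found for 1 of the 11 (9.09%) at 4 h and 2 of the 15 (13.3%) at 24 h, against 9.46% and 24.3% of all transcript clusters. The 3 genes called at 24 h were among the 8 whose level was above the array median.

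PCDH18, a delta-2 protocadherin whose mouse protein binds the adaptor Dab1, was the member with the lowest p at 4 h. On Ti-Ref the log2 signal was 11.07, 10.84, 11.36 and 11.22 in arrays A to D. On Ti-TMS-PEI it was 9.85, 9.95, 10.03 and 10.01. Every coated array lay below every uncoated one, and the coated arrays were close to each other. The means were 9.96 ± 0.08 (SD, n = 4) and 11.12 ± 0.22 (SD, n = 4), a log2 fold change of -1.16 (95% confidence interval -1.45 to -0.88) or 2.24-fold lower on Ti-TMS-PEI, with an adjusted p of 0.0282 by limma. The call was lost in all 8 fits that left out 1 array, with log2 fold changes from -1.26 to -1.08 and adjusted p from 0.0507 to 0.132.

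After 24 h the order of the surfaces was the other way round for PCDH18. The Ti-Ref arrays read 10.85, 10.99 and 11.16 and the Ti-TMS-PEI arrays 11.35, 11.18, 11.24 and 11.21. The ranges lay next to each other without overlap, 0.25 apart in their means on the log2 scale, and this was not called (adjusted p = 0.199). The difference between both surface effects, tested as an interaction over all 15 arrays, was 1.41 on the log2 scale with an SE of 0.17 (adjusted p = 0.000274), and it was called in all 15 fits that left out 1 array. Interaction calls were made for 2 of 32 genes, against 4.78% of the array. The bases just before the start of PCDH18 are shown because this was the member called at 4 h. They were read from RefSeq (GRCh38.p14, chr4:137532495-137532744, minus strand, 250 bases ending at the base before the start).
PCDH18 upstream: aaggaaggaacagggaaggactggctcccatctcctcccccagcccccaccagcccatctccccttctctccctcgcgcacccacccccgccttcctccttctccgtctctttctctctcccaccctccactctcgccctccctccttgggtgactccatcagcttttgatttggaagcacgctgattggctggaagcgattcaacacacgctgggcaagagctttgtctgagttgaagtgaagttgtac
Its GC content was 58.4%, and it held no match on either strand of 3 motifs searched: CACCTG, an E-box bound by Snail and ZEB proteins, TGACTCA, the AP-1 motif, and GGGCGG, the GC box. These motifs were present in 17.5%, 4.2% and 42.6% of 35116 upstream windows of this length.

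**Figure D2:**
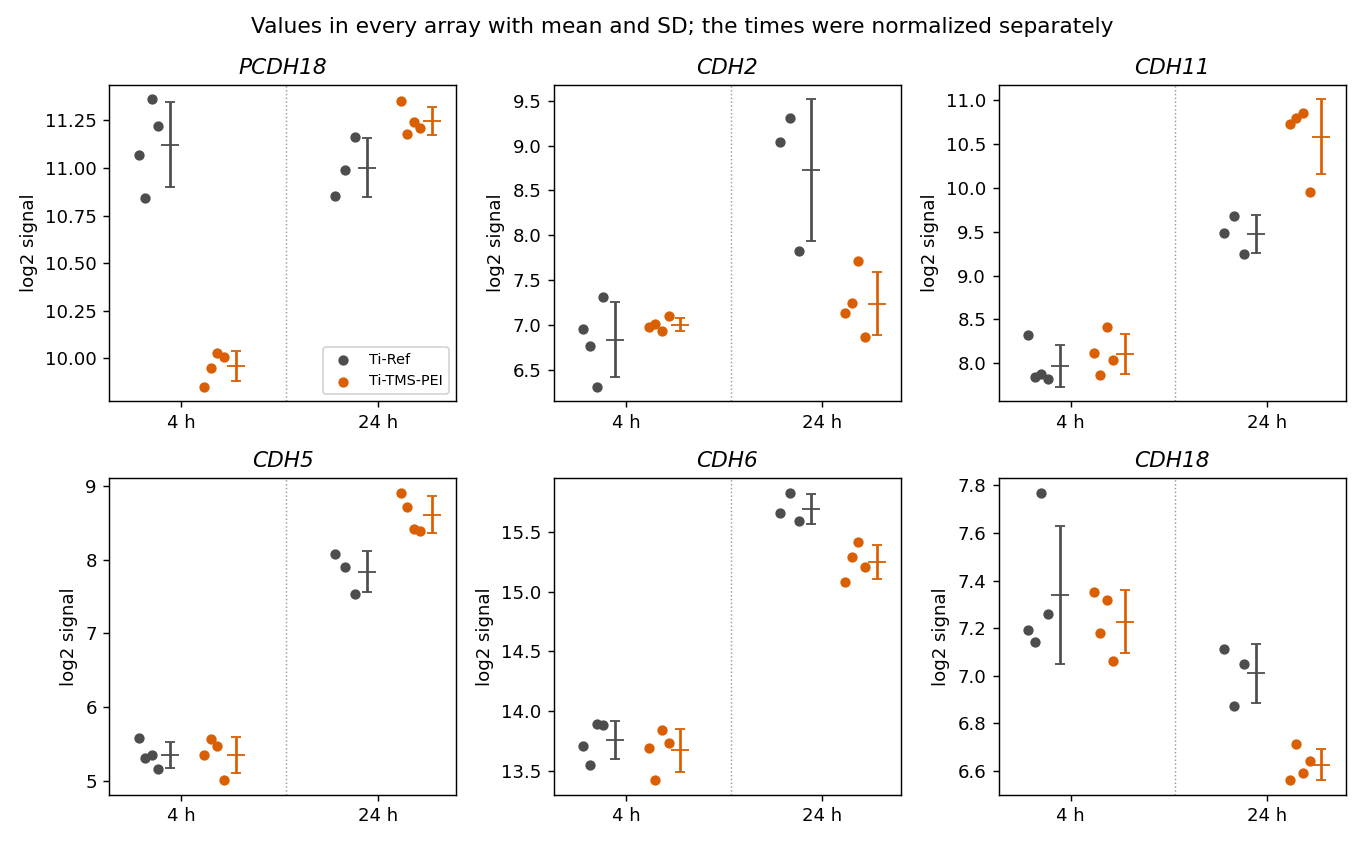
Log2 signal (y axis) of 6 genes in every array at 4 h and 24 h (x axis), as points with the mean and SD beside them, for Ti-Ref (grey) and Ti-TMS-PEI (orange). The 4 coated arrays of PCDH18 lie between 9.85 and 10.03 at 4 h, below all uncoated arrays, and CDH2 is between 6.87 and 7.71 on Ti-TMS-PEI at 24 h.

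The other delta-2 protocadherins, PCDH8, PCDH10, PCDH17 and PCDH19, gave log2 fold changes from -0.39 (PCDH19) to 0.47 (PCDH10) at 4 h and from -0.08 to 0.14 at 24 h, and none was called by limma. PCDH10 had an unadjusted p of 0.0373 at 4 h (adjusted p = 0.495). In the RefSeq gene order (GRCh38.p14) PCDH10 and PCDH18 are separated by 1 protein-coding gene, and at 4 h their differences had opposite signs. PCDH10 was dim, between 2.47 and 3.55 in all arrays of 4 h. The delta-1 genes PCDH1, PCDH7 and PCDH9 lay between -0.03 and 0.06 at 4 h and between -0.17 and 0.09 at 24 h. PCDH12, found in endothelium, PCDH15, part of the tip link of hair cells, and PCDH20 lay between 0.04 and 0.34 at 4 h and between -0.07 and 0.11 at 24 h.

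Among the type I cadherins, N-cadherin (CDH2) was lower on Ti-TMS-PEI after 24 h. The Ti-Ref arrays A to C read 9.04, 9.31 and 7.83 on the log2 scale. The Ti-TMS-PEI arrays A to D read 7.13, 7.25, 7.71 and 6.87. The surfaces did not overlap, but Ti-Ref C lay close to the highest coated array, and the uncoated arrays varied more. The means were 7.24 ± 0.35 (SD, n = 4) and 8.73 ± 0.79 (SD, n = 3), a log2 fold change of -1.49 (95% confidence interval -2.24 to -0.73), 2.8-fold lower with an adjusted p of 0.0261. It was called in 2 of 7 fits that left out 1 array and lost without Ti-Ref A or B or Ti-TMS-PEI A, B or D, with log2 fold changes from -1.94 to -1.20 and adjusted p from 0.00597 to 0.101.

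At 4 h CDH2 showed no call. Its Ti-Ref arrays read 6.96, 6.77, 6.31 and 7.31, and its Ti-TMS-PEI arrays 6.98, 7.01, 6.93 and 7.1. The coated arrays lay inside the range of the uncoated ones, with a log2 fold change of 0.17 (adjusted p = 0.816). The surface effect differed between the times by -1.65 on the log2 scale (SE 0.40, adjusted p = 0.0262). This difference was not called without Ti-Ref A or B or Ti-TMS-PEI A of 24 h (adjusted p up to 0.0799), nor without Ti-Ref C and Ti-TMS-PEI A of 4 h together (adjusted p = 0.0685).

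RefSeq lists 2 starts for CDH2, and the bases before the GC-rich one are shown (GRCh38.p14, chr18:28177131-28177380, minus strand, 250 bases). Capitals mark the GC box, found on the reverse strand.
CDH2 upstream: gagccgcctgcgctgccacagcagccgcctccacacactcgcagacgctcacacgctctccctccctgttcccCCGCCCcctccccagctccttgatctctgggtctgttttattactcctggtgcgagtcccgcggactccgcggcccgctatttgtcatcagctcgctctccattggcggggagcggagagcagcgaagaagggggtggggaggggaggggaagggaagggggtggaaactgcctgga
The window had a GC content of 66%, 1 GC box that begins 177 bases before the start, and no match of the E-box or AP-1 letters. The window before the other start (GC content 42%) held none of the 3 motifs. Promoter windows were at hand for 20 of the 32 genes, of which 3 held the E-box, 1 the AP-1 motif (CDH18) and 8 the GC box in at least 1 window. A match or its absence describes these letters only.

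The other type I genes were CDH1 (E-cadherin of epithelia), CDH3 (P-cadherin) and CDH15 (M-cadherin of muscle). CDH1 was dim, from 3.42 to 4.35 at 24 h and from 2.53 to 4.15 at 4 h. Its log2 fold changes were -0.54 at 4 h (adjusted p = 0.565) and -0.39 at 24 h (adjusted p = 0.19). CDH3 and CDH15 lay at -0.25 and 0.11 at 4 h and at -0.13 and -0.10 at 24 h. None of these 3 was called at either time.

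Of 13 type II cadherins, CDH11 and CDH5 were called higher at 24 h (15.4%, against 6.15% of all transcript clusters). At 4 h 0 of 13 were called (also 0 at an unadjusted p under 0.05). CDH11, the osteoblast cadherin, read 9.49, 9.68 and 9.25 in the Ti-Ref arrays of 24 h. In the Ti-TMS-PEI arrays it read 10.73, 10.8, 10.86 and 9.95. All coated arrays were above all uncoated ones, with array D well below the other coated arrays. The means were 10.59 ± 0.43 (SD, n = 4) and 9.47 ± 0.22 (SD, n = 3), a log2 fold change of 1.11 (95% confidence interval 0.61 to 1.61), 2.16-fold higher with an adjusted p of 0.0167. The call was lost without Ti-Ref A or C or Ti-TMS-PEI B, and the adjusted p ranged from 0.00259 to 0.0616 over 7 fits with log2 fold changes from 1 to 1.32.

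The 4 h arrays of CDH11 overlapped. They read 8.32, 7.84, 7.88 and 7.82 on Ti-Ref and 8.11, 7.86, 8.41 and 8.04 on Ti-TMS-PEI, a log2 fold change of 0.14 (adjusted p = 0.816). The difference of the surface effect between the times was 0.97 and was not called (adjusted p = 0.0583), so the effect at 24 h is not shown to differ from that at 4 h.

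CDH5, the VE-cadherin of endothelial junctions, was measured in MG-63 cells at 8.08, 7.9 and 7.54 in the Ti-Ref arrays of 24 h. On Ti-TMS-PEI its log2 signals were 8.91, 8.72, 8.42 and 8.39. The coated arrays were all higher, by a mean of 0.77 (95% confidence interval 0.38 to 1.16), from 7.84 ± 0.28 (SD, n = 3) to 8.61 ± 0.25 (SD, n = 4). This was 1.71-fold with an adjusted p of 0.0249. Without Ti-Ref B or C or Ti-TMS-PEI A or B it was not called (adjusted p from 0.0287 to 0.0798 over 7 fits, log2 fold changes from 0.62 to 0.89). At 4 h the arrays read 5.58, 5.31, 5.35 and 5.16 on Ti-Ref and 5.35, 5.57, 5.48 and 5.01 on Ti-TMS-PEI and overlapped fully, with an adjusted p of 0.997. The interaction was 0.77 on the log2 scale and not called (adjusted p = 0.0695).

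Markers of endothelial cells were dim, and none was called beside CDH5. Of PECAM1, VWF, TEK, KDR and CLDN5, 0 of 5 were called by limma at either time (also 0 at an unadjusted p under 0.05), and 0 of 5 lay above the array median. Their summed signal at 24 h was 7.12 to 7.40 on Ti-TMS-PEI and 7.27 to 7.50 on Ti-Ref on the log2 scale, and the ranges overlapped. KDR and PECAM1 were in the dimmest 25%.

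CDH6, K-cadherin of developing kidney, was the brightest member at both times. At 24 h it read 15.66, 15.83 and 15.59 on Ti-Ref. On Ti-TMS-PEI it read 15.08, 15.29, 15.42 and 15.21. The coated arrays were all lower, by 0.44 on the log2 scale or 1.36-fold (adjusted p = 0.0439), which is under the fold limit, so CDH6 was not called. At 4 h it read 13.71, 13.55, 13.89 and 13.88 on Ti-Ref and 13.69, 13.42, 13.84 and 13.73 on Ti-TMS-PEI, with overlap and an adjusted p of 0.866.

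CDH18, a cadherin known from the nervous system, had the same pattern at a lower signal. Its Ti-Ref arrays of 24 h read 7.11, 6.87 and 7.05. Its Ti-TMS-PEI arrays read 6.56, 6.71, 6.59 and 6.64. The surfaces did not overlap, and the log2 fold change of -0.39 (1.31-fold, adjusted p = 0.045) was under the fold limit. At 4 h the arrays read 7.19, 7.14, 7.77 and 7.26 on Ti-Ref and 7.35, 7.18, 7.32 and 7.06 on Ti-TMS-PEI and overlapped (adjusted p = 0.854). Of the neural markers, 0 of 4 measured lay above the array median and 0 were called by limma. Their summed log2 signal overlapped at 24 h, with 7.25 to 7.36 on Ti-TMS-PEI and 7.25 to 7.40 on Ti-Ref. At 4 h it did not overlap, with 5.96 to 6.18 on Ti-TMS-PEI and 6.20 to 6.42 on Ti-Ref, and 2 of the 4 had an unadjusted p under 0.05.

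CDH24, a further type II cadherin that binds catenins, read 8.33, 8.57 and 8.46 on Ti-Ref and 8.3, 8.12, 8.48 and 8.33 on Ti-TMS-PEI at 24 h. The surfaces overlapped, with a log2 fold change of -0.15 (adjusted p = 0.497). At 4 h it read 7.35, 7.25, 7.14 and 7.35 on Ti-Ref and 7.42, 7.35, 7.39 and 6.7 on Ti-TMS-PEI, where array D was low, with a log2 fold change of -0.06 (adjusted p = 0.942).

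**Figure D3:**
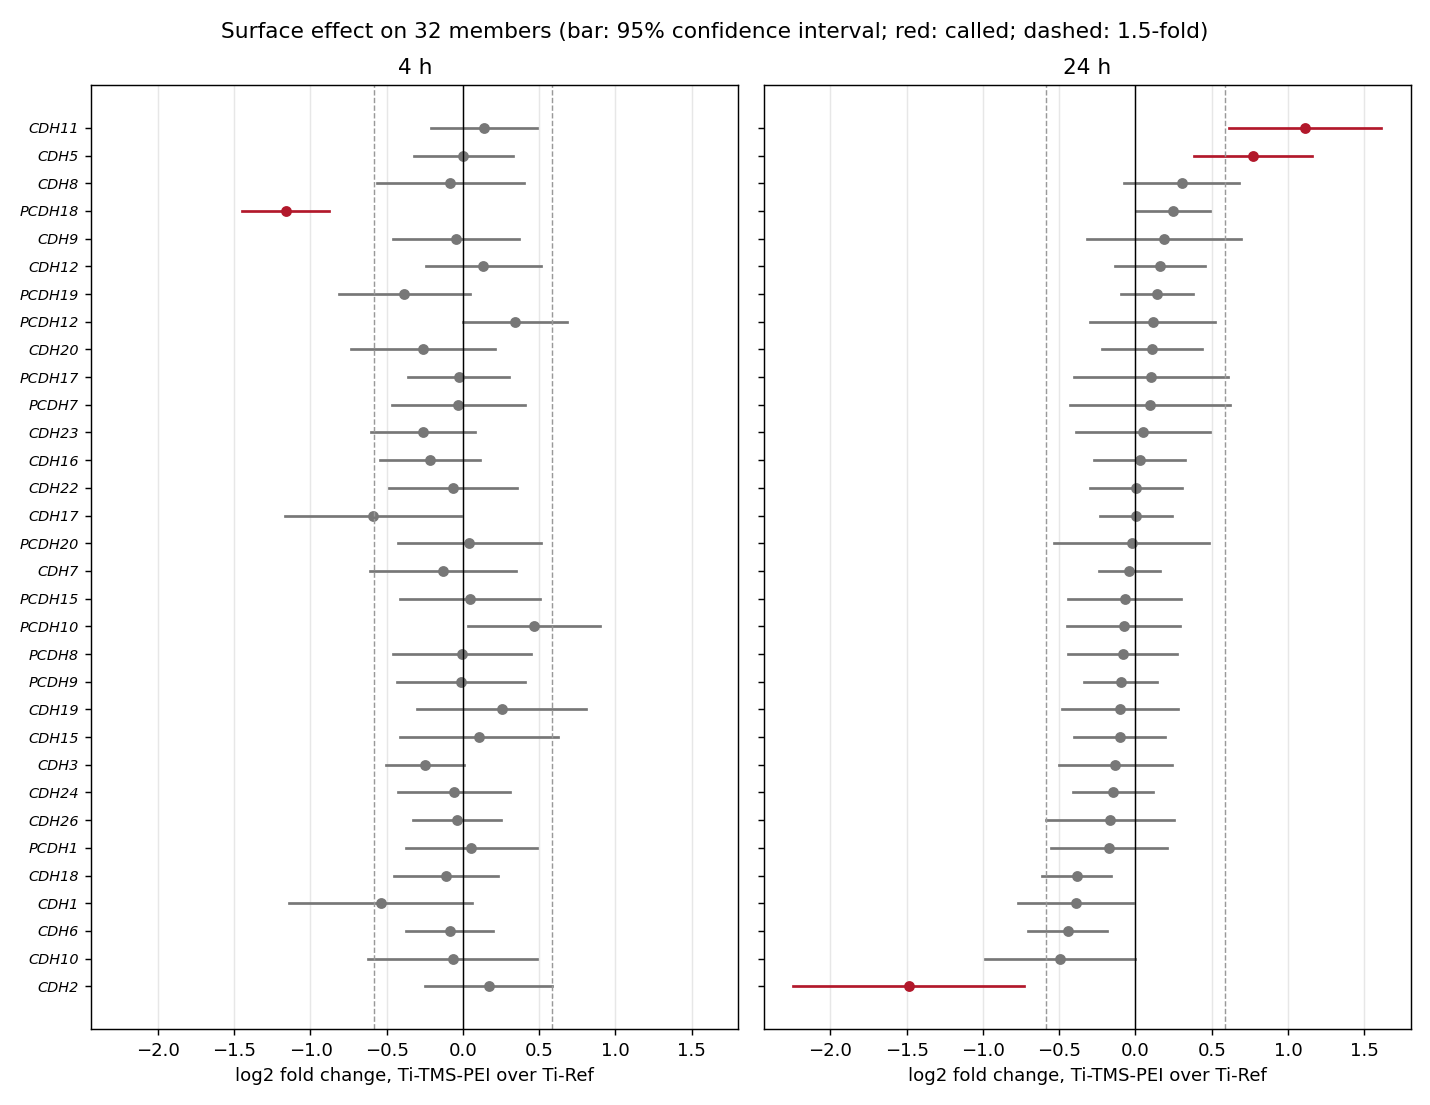
Log2 fold change of Ti-TMS-PEI over Ti-Ref (x axis) for each of the 32 genes (y axis) at 4 h (left) and 24 h (right), with the 95% confidence interval as a bar, called genes in red and the 1.5-fold limits dashed. PCDH18 is called at 4 h (-1.16), and CDH11 (1.11), CDH5 (0.77) and CDH2 (-1.49) at 24 h.

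The remaining type II genes, CDH7, CDH8, CDH9, CDH10, CDH12, CDH19, CDH20 and CDH22, gave log2 fold changes between -0.26 and 0.25 at 4 h and between -0.50 (CDH10) and 0.30 (CDH8) at 24 h. None was called with all arrays. CDH10 passed at 24 h only without Ti-TMS-PEI D, with a log2 fold change of -0.69 and an adjusted p of 0.0371, against 0.201 with that array. The genes of the 7D class, CDH16 of kidney and CDH17 of liver and intestine, lay at -0.22 and -0.59 at 4 h and at 0.03 and 0.00 at 24 h. CDH17 had an unadjusted p of 0.0458 at 4 h (adjusted p = 0.518). CDH23, the partner of PCDH15 in hair cells, and CDH26 lay between -0.26 and 0.05 at both times.

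Some members are neighbours in the RefSeq gene order. CDH8, CDH11 and CDH5 follow each other with 0 protein-coding genes between them, and their log2 fold changes at 24 h were 0.30, 1.11 and 0.77, with CDH8 not called (adjusted p = 0.307). CDH18, CDH12, CDH10, CDH9 and CDH6 form another run with at most 1 gene between neighbours, and there the values were -0.39, 0.16, -0.50, 0.19 and -0.44, with 0 called. The values thus had 1 sign in the first run and both signs in the second. CDH3 and CDH1, also adjacent, lay at -0.13 and -0.39. Whether position and difference are related was not tested.

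The lists of partners described next were chosen with earlier results of these data known, and 0 genes of them were called by limma at 4 h, except FAT4 under other estimates of the variance. At an unadjusted p under 0.05, lists held at most 1 gene at 4 h apart from the repressors with 3 of 11 (27.3%), against 9.46% of the array. Catenins and plakophilins bind cadherin tails, and 11 of 12 listed were measured. At 24 h 1 was called higher and 1 lower (18.2%, against 6.15% of all transcript clusters). JUP, plakoglobin, which takes the place of beta-catenin on cadherin tails and sits in desmosomes, rose from 9.92 ± 0.16 (SD, n = 3) on Ti-Ref to 11.83 ± 0.17 (SD, n = 4) on Ti-TMS-PEI. This was 3.76-fold with an adjusted p of 0.000266, and at 4 h its log2 fold change was 0.27 (adjusted p = 0.644). The difference between the times was 1.64 (adjusted p = 0.000793). PKP4, a relative of p120-catenin, was 1.56-fold lower (log2 fold change -0.64, adjusted p = 0.0372), in 2 of 7 fits that left out 1 array (not without Ti-Ref A, B or C or Ti-TMS-PEI A or B). CTNNB1 and CTNNA1, beta- and alpha-catenin, gave 0.04 and 0.21 at 24 h and were not called (adjusted p = 0.868 and 0.259).

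Proteins that link cadherins to actin or strengthen the junction made a list of 13, all measured. At 24 h 1 was called higher and 2 lower (23.1%, against 6.15% of all transcript clusters). AJUBA, a LIM protein that binds alpha-catenin, was 2.82-fold lower on Ti-TMS-PEI, at 6.56 ± 0.17 (SD, n = 4) against 8.06 ± 0.23 (SD, n = 3) with an adjusted p of 0.000906. NECTIN1, an immunoglobulin-like adhesion receptor of the same junctions, was 2.08-fold lower (adjusted p = 0.0151, lost without Ti-Ref A or B). SHROOM3, which recruits contractile actin to junctions, was 1.58-fold higher (adjusted p = 0.0164, lost without Ti-Ref A or C). AJUBA, NECTIN1 and the actin bundler LIMA1 differed between the times by -1.17, -1.10 and -0.62 (adjusted p = 0.0232, 0.0156 and 0.0214). These 3 calls were lost in 2, 1 and 4 of 15 fits that left out 1 array, namely without Ti-Ref A or Ti-TMS-PEI B of 24 h for AJUBA, Ti-Ref B of 24 h for NECTIN1, and Ti-Ref B of 4 h or Ti-Ref A or B or Ti-TMS-PEI A of 24 h for LIMA1. The median log2 fold change of the list at 24 h was -0.17.

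**Figure D4:**
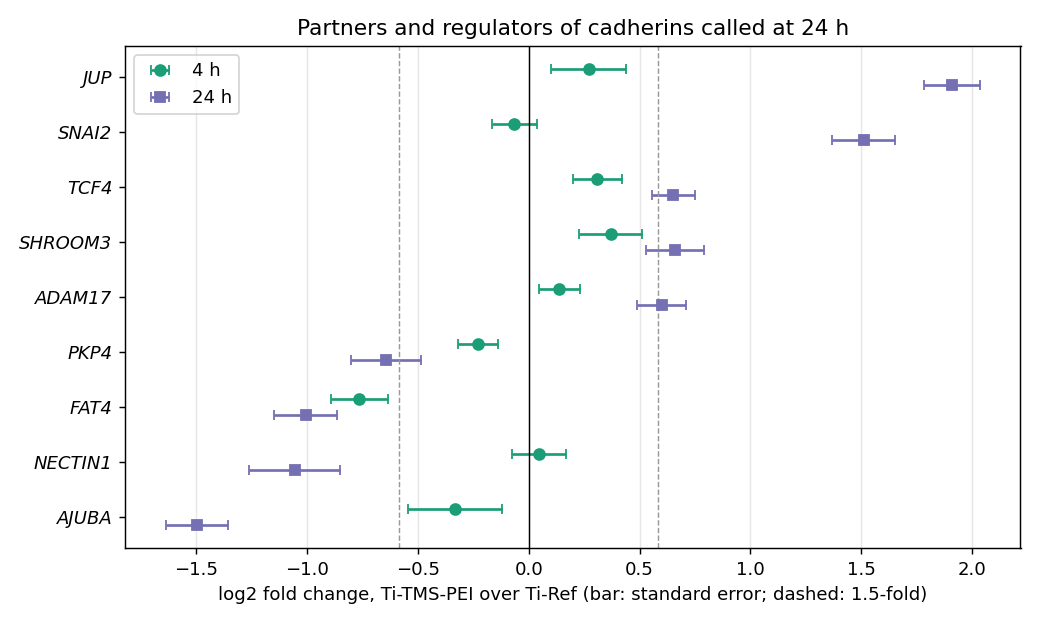
Log2 fold change of Ti-TMS-PEI over Ti-Ref (x axis) with its standard error for 9 partners, regulators and relatives of cadherins (y axis) called at 24 h, at 4 h (green) and 24 h (violet), with the 1.5-fold limits dashed. JUP (1.91) and SNAI2 (1.51) are highest and AJUBA (-1.5) is lowest at 24 h. None was called at 4 h, except FAT4 under other estimates of the variance.

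Transcription factors known for repressing CDH1 made a list of 11, all measured. At 24 h 2 were called higher and 0 lower (18.2%, against 6.15% of all transcript clusters). SNAI2 (Slug) was 2.85-fold higher on Ti-TMS-PEI, at 14.17 ± 0.16 (SD, n = 4) against 12.66 ± 0.24 (SD, n = 3), with an adjusted p of 0.000906. At 4 h its log2 fold change was -0.07 (adjusted p = 0.879), and the difference between the times was 1.58 (adjusted p = 0.000166). TCF4, a helix-loop-helix factor, was 1.57-fold higher (adjusted p = 0.00552). SNAI1 was not called at 4 h (log2 fold change 0.41, adjusted p = 0.354). The median of the list at 24 h was -0.07, with 4 means higher and 7 lower. ZEB1 was not called at 24 h (log2 fold change -0.30, adjusted p = 0.0763). Its effect differed between the times by -0.58 (adjusted p = 0.0147), under the fold limit. CDH2 fell and CDH1 was not called in the same arrays, and no relation between these genes was tested.

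Enzymes and adaptors that shed or internalise cadherins were 9, with 8 measured. At 24 h 1 was called higher and 0 lower (12.5%, against 6.15% of all transcript clusters). Without the fold limit 3 of 8 had an adjusted p under 0.05, against 9.42% of the array. An unadjusted p under 0.05 was found for 4 of 8 (50%), against 24.3%. ADAM17, a sheddase, was 1.51-fold higher at 24 h (adjusted p = 0.0123). Its log2 fold change of 0.60 dropped under the fold limit, to 0.54, when arrays were centred on their median, and the call was lost without Ti-Ref B or Ti-TMS-PEI A or B. Of the WAVE complex, 9 of 11 genes were measured and 0 called by limma at 24 h. At an unadjusted p under 0.05 there was 1 (11.1%), against 24.3% of all transcript clusters. WASF3 reached a log2 fold change of 0.51 (adjusted p = 0.0372), under the fold limit. Its effect differed between the times by 0.70 on the log2 scale (adjusted p = 0.0166, not called without Ti-Ref B of 24 h).

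Desmosomal cadherins (DSG and DSC genes) numbered 7, and 0 were called by limma at either time (also 0 at an unadjusted p under 0.05). Their smallest p at 24 h was that of DSG1, with a log2 fold change of -0.38 (adjusted p = 0.345). JUP, described above, thus rose without a call in the desmosomal cadherins. Of the FAT, DCHS, CELSR and CDHR families and the calsyntenins (CLSTN genes) 16 of 17 genes were measured. At 24 h 1 was called (6.25%, against 6.15% of all transcript clusters). FAT4, a giant cadherin that binds DCHS1, was 2.01-fold lower on Ti-TMS-PEI, at 7.79 ± 0.22 (SD, n = 4) against 8.80 ± 0.16 (SD, n = 3), with an adjusted p of 0.00437. At 4 h its log2 fold change was -0.77 and not called (adjusted p = 0.0978), but it was called with the spread shared over all 15 arrays (adjusted p = 0.0227) and with a trended and robust variance (adjusted p = 0.0077). The difference between the times was not called (adjusted p = 0.567). JUP, SNAI2, AJUBA, TCF4 and FAT4 were called at 24 h in all 7 fits that left out 1 array.

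Markers of other cells were given because several members carry the names of other tissues. Of 6 epithelial markers, 5 lay in the dimmest 25% at 24 h, and KRT19 was 1.68-fold higher on Ti-TMS-PEI (adjusted p = 0.0178, lost without Ti-Ref B or Ti-TMS-PEI B). With KRT19, the summed epithelial log2 signal was 8.52 to 8.89 on Ti-TMS-PEI and 7.90 to 8.18 on Ti-Ref. Blood markers gave 7.56 to 8.35 and 8.05 to 8.24 and overlapped. Osteoblast and mesenchymal markers gave 18.28 to 18.45 on Ti-TMS-PEI and 18.25 to 18.27 on Ti-Ref at 24 h, without overlap. At 4 h they gave 17.98 to 18.03 and 17.95 to 18.00 and overlapped. Of these 10 markers 0 were called by limma at either time. At 24 h 7 of the 10 means were higher on Ti-TMS-PEI and 3 lower. The lower ones were RUNX2, SP7 and IBSP, with log2 fold changes of -0.18, -0.08 and -0.22. The sums here and above are of unlogged signals, so the brightest genes, in this list VIM, SPARC and COL1A2, weigh most. The part of these markers in the members' values was not tested.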

How the data were processed

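The authors scanned Clariom S arrays of MG-63 RNA and summarised them in the Transcriptome Analysis Console 4.0 with SST-RMA, which adjusts the background, applies a signal space transformation and quantile normalization and takes log2. The deposited log2 values per transcript cluster were used as they stand. Genome build and detection calls are not given in the sources used here. Probes were named with the platform annotation (17709 of 21448 clusters with 1 symbol, 3739 without).

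Each time was fitted in R 4.3.3 with limma 3.58.1 (lmFit, eBayes) with the surface as the only term, and the difference between the times over all 15 arrays. P-values were adjusted over all 21448 clusters. Members, lists and classes were chosen with earlier results of these data known. Values in every array are given for members called in any comparison and for the 6 brightest, and from each list up to 4 called genes, or up to 2 with the smallest p where none was called. CTNNB1, CTNNA1, ZEB1, the markers and genes given as neighbours were named outside this rule, after their values were seen. The fits were tested on simulated data. As alternatives, each array was left out in turn, dim clusters or the fold limit were dropped, arrays were centred on their median or quantile-normalized again, and the variance was shared over all arrays, trended and robust, or fitted beside a replicate block. Precision is limited by the number of arrays: over all clusters the median SD of an array group was 0.22 (4 h) and 0.18 (24 h), and over the 32 genes 0.30 and 0.24. Figures were drawn with matplotlib 3.10.9.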

Additional observations from a re-analysis of the deposited data

Results flagged for a closer look

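In groups of 4 arrays, single arrays lay apart from the other 3 for 8 of 96 combinations of gene and group, measured as the gap to the nearest array over the range of the group, and chance alone sets off about 1 in 20. At 4 h these were CDH11 in Ti-Ref A (8.32 against 7.82 to 7.88, gap 0.88 of the range), PCDH19 in Ti-Ref C (4.79 against 3.94 to 4.05, 0.871), CDH17 in Ti-TMS-PEI C (4.17 against 3.22 to 3.32, 0.895), and CDH24 (6.7 against 7.35 to 7.42, 0.903) and PCDH9 (6.34 against 5.44 to 5.56, 0.867) in Ti-TMS-PEI D. At 24 h they were CDH11 in Ti-TMS-PEI D (9.95 against 10.73 to 10.86, 0.857), and CDH1 (3.42 against 3.9 to 3.97, 0.873) and PCDH10 (4.09 against 3.56 to 3.61, 0.906) in Ti-TMS-PEI B. Of these genes only CDH11 was called in a comparison. Without Ti-TMS-PEI D its log2 fold change at 24 h was 1.32, against 1.11 with it.

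The surface effect differed between 24 h and 4 h for PCDH18 by 1.41 (adjusted p = 0.000274) and for CDH2 by -1.65 on the log2 scale (adjusted p = 0.0262, limma).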

How the results depend on the processing

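Of the 32 genes, 1 was called at 4 h, 3 at 24 h and 2 in the difference between the times. With a replicate block these became 0, 2 (CDH5 and CDH11) and 3 (CDH5, CDH11 and PCDH18) (adjusted p = 0.219 for PCDH18 at 4 h and 0.116 for CDH2 at 24 h). The sources do not say whether arrays with the same letter belong together. Residuals of such arrays, over all clusters, correlated from -0.03 to 0.05 at 4 h and from -0.07 to -0.06 at 24 h. This cannot decide the matter, since single genes may still share an experiment. The block gives Ti-TMS-PEI D of 24 h, which has no partner, no weight. Among partners, markers and clustered protocadherins the block also ended the 24 h calls of TCF4, KRT19, PCDHB2, PKP4, NECTIN1, PCDHB16, ADAM17, PCDHB15 and PCDHB4 (adjusted p from 0.0515 for TCF4 to 0.12 for PCDHB4) and the calls of AJUBA, NECTIN1 and LIMA1 in the difference between the times (0.0645, 0.068 and 0.109). Leaving out 1 array gave 0 to 0 at 4 h, where the whole array then gave 0 to 3 calls, 0 to 3 at 24 h (0 without Ti-TMS-PEI B) and 1 to 3 for the difference. Without Ti-Ref C and Ti-TMS-PEI A of 4 h, chosen after seeing the data because both stood apart on principal components, 0 were called at 4 h and 1 in the difference (PCDH18). Without the fold limit, 5 were called at 24 h, with CDH6 and CDH18 added. Without the dimmest 25% of clusters, 4 were called in the difference (CDH5, adjusted p = 0.0496, and CDH11, 0.0428, were added), and a trended and robust variance gave 3, with CDH11. The other counts stayed at 1, 3 and 2. Under the same settings the whole array gave 0 to 83 calls at 4 h (9 as reported). At 24 h it gave 851 (without Ti-Ref A) to 2020 (no fold limit), with 853 under the block (1319 as reported). No called member changed sign, while up to 9 of 31 uncalled members did when 1 array was left out at 4 h. With 1 cluster per gene, averaging clusters gave no other value. Dim signals are compressed, so a change of a dim member could go unseen, and the cause of lost calls was not tested.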

Other observations

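The clustered protocadherins, left out above, were measured for 16 genes, all of the PCDHB cluster. At 24 h 5 of 16 (31.2%) were called higher on Ti-TMS-PEI and 0 lower, against 3.46% and 2.69% of all transcript clusters. Their median log2 fold change was 0.55. PCDHB2 had the smallest adjusted p (0.00687, log2 fold change 0.87), and PCDHB14 and PCDHB16 the highest values (1.17 and 1.14). At 4 h 0 of 16 were called by limma (1 at an unadjusted p under 0.05), with a median of 0.03. These genes have closely similar sequences, so their probes may measure each other, and they are not independent values. PCDHB2 was called in all 7 fits that left out 1 array and PCDHB14 in 6 (not without Ti-Ref B), while PCDHB15, PCDHB16 and PCDHB4 were called in 2, 3 and 2. PCDHB15 was also lost with the spread shared over all 15 arrays or with arrays centred on their median. It was lost without Ti-Ref A, B or C or Ti-TMS-PEI A or D, and PCDHB16 without Ti-Ref A or B or Ti-TMS-PEI A or B, and PCDHB4 without Ti-Ref A or B or Ti-TMS-PEI A, B or D. Whether they differ from the other protocadherins was not tested.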
